A study of Mus musculus with 6 samples.

Results

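The G1 cyclins and cyclin-dependent kinases (CDKs) were followed through 8 genes, chosen by name: the D-type cyclins Ccnd1, Ccnd2 and Ccnd3, their partner kinases Cdk4 and Cdk6, the E-type cyclins Ccne1 and Ccne2, and the kinase Cdk2. Each of the 8 had 1 probeset annotated with its symbol alone, and all 8 passed the filter on dim probesets, so the members are 8 of the 14994 genes tested. Expression was measured on 6 MoGene 1.0 ST arrays, which carry oligonucleotide probes along the exons of mouse genes, in KSL SLAM cells of mouse bone marrow, a fraction rich in blood stem cells. The cells were sorted for the absence of lineage markers, CD48 and CD41 and for the presence of c-Kit, Sca-1 and CD150. In the G-CSF group, 3 arrays came from mice given granulocyte colony-stimulating factor (G-CSF) subcutaneously at 125 mcg/kg, with 2 injections a day for 7 days. In the control group, 3 arrays came from mice given PBS (saline) for 7 days. Each array held RNA of an independent pool of 5 to 10 mice, so 1 array stands for a pool and not for an animal. No strain, age or genetic change is given in the sources used here.

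In the textbook account, mitogens raise D-type cyclins, which bind Cdk4 or Cdk6 and start to phosphorylate the retinoblastoma family of pocket proteins. E-type cyclins with Cdk2 complete this step, E2F factors are freed, and the cell passes from G1 into S phase. Quiescent stem cells are known to hold this step back, and Cdk6 in particular is known for setting how fast a stem cell leaves quiescence. These kinases are controlled largely through protein binding, phosphorylation and turnover, none of which an mRNA array measures.

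No member changed at the threshold used, an adjusted p under 0.05 in limma's moderated test over all genes. Adjusted p-values of the members ran from 0.832 (Ccnd2) to 0.996 (Ccnd3). In the same test 0.0267% of all genes passed, which is 4 genes, all of them higher with G-CSF. At an unadjusted p under 0.05 by limma, none of the members passed, beside 6.04% of all genes. The smallest unadjusted p by limma was 0.0509, for Ccnd2, so that count depends on the setting. Ccnd2 passed it by limma with no filter (unadjusted p = 0.0481), with quantile normalization again (0.0336) and without G-CSF replicate 2 (0.0239). With the third G-CSF array left out, Ccnd2 (0.047), Ccnd1 (0.0389) and Cdk6 (0.00399) passed it by limma, and none of these passed after adjustment. The share of all genes passing was not counted for these alternatives, and the 6.04% holds for the main test only. Members passing in an alternative are therefore not a result about the members. Differences, given throughout as G-CSF minus PBS on the log2 intensity scale, were positive in 5 members and negative in 3. Their median was 0.10, beside 0.002 for all genes tested. The members did not move as a block: Ccnd2 and Ccnd1 had the most negative differences and Cdk6 the most positive.

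**Figure D1:**
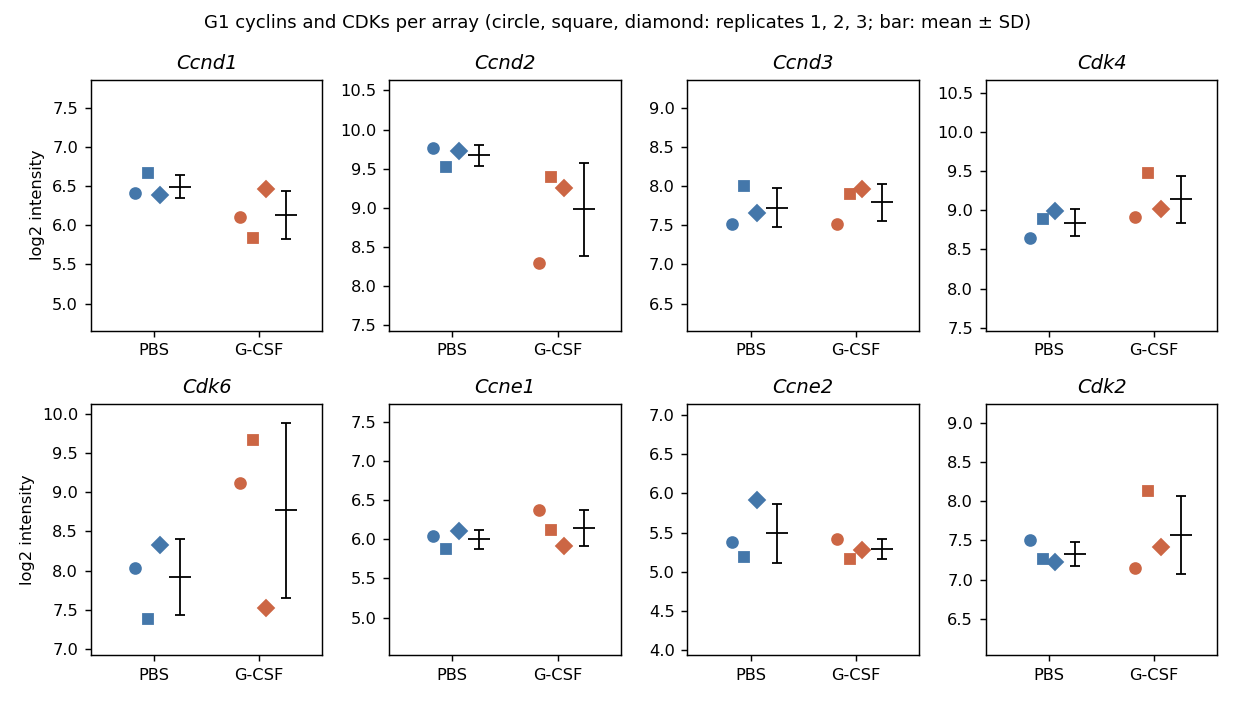
Each panel plots the log2 intensity of 1 gene on the 3 PBS arrays (blue) and the 3 G-CSF arrays (orange), with circle, square and diamond for replicates 1, 2 and 3 and the group mean ± SD (n = 3) beside them. All panels span the same number of log2 units. The groups are separate for Ccnd2 only, and the G-CSF arrays of Cdk6 spread over 2.15 log2 units.

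Ccnd2 encodes cyclin D2, a D-type cyclin that blood cells are known to express. In the main test it was the single member whose groups did not overlap. Its log2 intensity was 9.77, 9.52 and 9.72 on PBS arrays 1 to 3 and 8.30, 9.39 and 9.26 on G-CSF arrays 1 to 3. Every G-CSF array lay below every PBS array, and G-CSF replicate 1 lay far below the other arrays of its group. Over all genes, 5.05% had G-CSF arrays wholly below the PBS arrays, so 1 such gene among 8 is not a result about the members. The means were 9.67 ± 0.13 with PBS and 8.98 ± 0.59 with G-CSF (SD, n = 3 each). The difference was -0.69 (SE 0.29, 95% interval -1.38 to 0.004, limma adjusted p = 0.832). On the linear scale this puts the geometric mean with G-CSF at 62.1% of that with PBS. Without G-CSF replicate 1 the difference was -0.35 (limma adjusted p = 0.964), and the remaining arrays still did not overlap.

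Ccnd1 encodes cyclin D1, the D-type cyclin best known from growth factor signalling in many tissues. It stood at 6.41, 6.67 and 6.39 on the PBS arrays and at 6.11, 5.84 and 6.46 on the G-CSF arrays. Replicates 1 and 2 of the G-CSF group lay below all PBS arrays, while replicate 3 lay among them. The difference was -0.36 (SE 0.20, 95% interval -0.83 to 0.12, limma adjusted p = 0.932), and it was -0.21 without G-CSF replicate 2. Ccnd3 encodes cyclin D3, which is known for its part in lymphocyte and erythroid precursor division. Its values were 7.51, 8.0 and 7.65 with PBS and 7.52, 7.90 and 7.96 with G-CSF. The 2 sets of arrays covered nearly the same range. The difference was 0.07 (SE 0.20, 95% interval -0.40 to 0.55, limma adjusted p = 0.996), and on the linear scale the interval ran from 0.759-fold to 1.46-fold. Without PBS replicate 1 the Ccnd3 difference was -0.029 and without G-CSF replicate 3 it was -0.008.

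Because the D-type cyclins bind the same kinases, their balance was also compared within arrays, as the log2 ratio of 1 member's intensity to another's. Probesets differ in how brightly they report a transcript, so only the change of a ratio between groups can be read, not its size. The ratio of Ccnd3 to Ccnd2 was -2.25, -1.52 and -2.07 on the PBS arrays and -0.78, -1.49 and -1.30 on the G-CSF arrays. Each G-CSF array had a higher ratio than each PBS array, though PBS replicate 2 and G-CSF replicate 2 were nearly level. With quantile normalization again the groups of this ratio overlapped (exact permutation p = 0.2, adjusted p = 0.467). In the main setting the change was 0.76, with an exact two-sided permutation p of 0.1, the smallest that 3 against 3 arrays allow (adjusted p = 0.35 over the 7 pairs compared). The ratio of Ccnd3 to Ccnd1 was 1.10, 1.33 and 1.25 with PBS and 1.41, 2.06 and 1.50 with G-CSF, again without overlap. It changed by 0.43, with the same exact permutation p of 0.1 (adjusted p = 0.35). These pairs share Ccnd3, and 10.8% of single genes had groups without overlap in either direction. The ratio of Ccnd2 to Ccnd1 overlapped between groups (change -0.33, exact permutation p = 0.6, adjusted p = 0.7), and without G-CSF replicate 1 its change was -0.001.

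**Figure D2:**
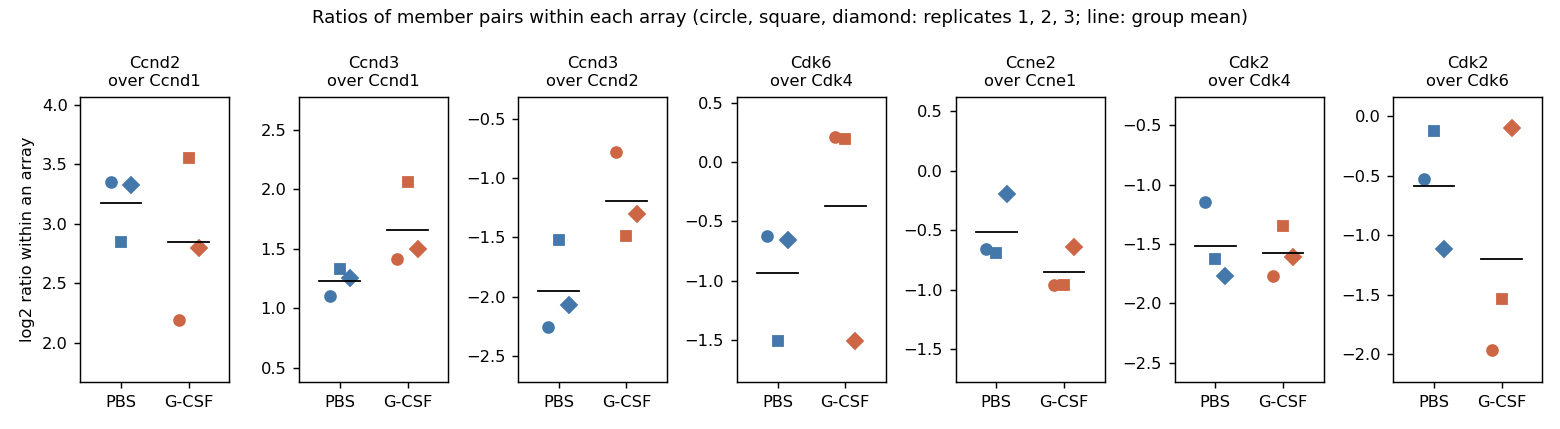
Each panel plots the log2 ratio of a pair of members within each array (PBS blue, G-CSF orange; circle, square and diamond for replicates 1, 2 and 3; line for the group mean, n = 3). The groups are separate for Ccnd3 over Ccnd1 and Ccnd3 over Ccnd2, and overlap in the other 5 pairs.

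All 3 kinase genes had positive differences, and in each of them G-CSF replicate 2 was the highest of the 6 arrays. Over all genes, that array was the highest in 18.2%. That array was also the lowest of the 6 for Ccnd1 and Ccne2, and over all genes it was the lowest in 15.2%. The start regions of these 3 genes, chosen after their values and motifs were seen, are shown because they differ in the letters of well-known cell cycle motifs. RefSeq sequence was at hand for 5 of the 8 members, in windows of 250 bases before to 50 after the annotated start (build GRCm38.p6). Capitals mark CACGTG, the E-box that MYC and related factors bind, and GCGGGAA, a core of E2F sites, searched on both strands. The windows are Cdk4 at chr10:127063285-127063584 (plus strand), Cdk6 at chr5:3343643-3343942 (plus strand) and Cdk2 at chr10:128705002-128705301 (minus strand).
Cdk4: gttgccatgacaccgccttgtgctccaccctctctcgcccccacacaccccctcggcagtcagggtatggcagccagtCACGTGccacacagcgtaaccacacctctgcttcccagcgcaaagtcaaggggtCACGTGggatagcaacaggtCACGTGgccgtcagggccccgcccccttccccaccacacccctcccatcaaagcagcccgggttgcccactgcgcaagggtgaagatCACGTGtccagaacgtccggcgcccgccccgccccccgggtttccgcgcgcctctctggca
Cdk6: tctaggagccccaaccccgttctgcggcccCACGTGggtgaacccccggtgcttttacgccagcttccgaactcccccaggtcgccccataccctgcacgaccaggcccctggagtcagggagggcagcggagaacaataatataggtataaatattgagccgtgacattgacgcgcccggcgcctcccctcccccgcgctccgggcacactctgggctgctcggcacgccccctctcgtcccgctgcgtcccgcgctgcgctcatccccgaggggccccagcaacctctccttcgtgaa
Cdk2: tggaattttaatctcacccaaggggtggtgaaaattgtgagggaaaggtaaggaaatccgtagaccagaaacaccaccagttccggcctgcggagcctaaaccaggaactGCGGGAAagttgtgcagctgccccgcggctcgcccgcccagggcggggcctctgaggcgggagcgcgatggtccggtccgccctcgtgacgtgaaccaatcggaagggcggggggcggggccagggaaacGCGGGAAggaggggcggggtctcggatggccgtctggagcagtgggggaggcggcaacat
The Cdk4 window held 4 copies of CACGTG, a count reached by 8 of the 32851 RefSeq windows of this length, and the Cdk6 window held 1. At least 1 copy was present in 7.15% of all windows. The Cdk2 window held 2 copies of GCGGGAA and no CACGTG, where 4.6% of all windows held at least 1 copy of GCGGGAA and 0.234% at least 2. The 2 windows of Ccnd3 and the window of Ccne1 held neither motif. These motifs do not overlap each other in the windows. The STAT motif TTCNNNGAA, found in 8.3% of windows, was in none of the members' windows. A match describes letters in a window and is not a measured binding site.

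Cdk6 encodes the kinase that pairs with D-type cyclins and is the one best known in blood stem cells. Its log2 intensity was 8.03, 7.38 and 8.33 with PBS and 9.12, 9.67 and 7.52 with G-CSF. G-CSF replicates 1 and 2 lay above all PBS arrays, and replicate 3 lay within the PBS range. The means were 7.92 ± 0.49 with PBS and 8.77 ± 1.12 with G-CSF (SD, n = 3 each). The difference of 0.85 was the largest in size of the 8 members, but so was its error (SE 0.54, 95% interval -0.42 to 2.12, limma adjusted p = 0.936). On the linear scale this is 1.81-fold, with an interval from 0.75-fold to 4.36-fold. The spread of Cdk6 within groups (residual SD 0.86) was above that of 98.1% of all genes tested. Without G-CSF replicate 3 the difference was 1.48 (limma adjusted p = 0.53, the smallest of any member under any alternative), and without G-CSF replicate 2 it was 0.41.

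Genes with the pattern closest to that of Cdk6 were found by the root mean square distance between mean-centred log2 values over the 6 arrays. The nearest were Arsb, a lysosomal sulfatase, at 0.179, Lnpk, which shapes the endoplasmic reticulum, at 0.293, Zfp706 at 0.307, the kinase gene Gsk3a at 0.312 and Slf1 at 0.314. The median distance over all genes was 0.858. Arsb stood at 6.58, 6.15 and 6.61 with PBS and at 7.37, 8.25 and 5.98 with G-CSF. All 5 had their highest value on G-CSF replicate 2, and their low values lay on PBS replicate 2 or G-CSF replicate 3, as for Cdk6. The 5 genes were chosen for this likeness on the same arrays, so sharing these arrays with Cdk6 is not a separate result. None of the 5 passed the test either (limma adjusted p from 0.855 for Gsk3a to 0.966).

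**Figure D3:**
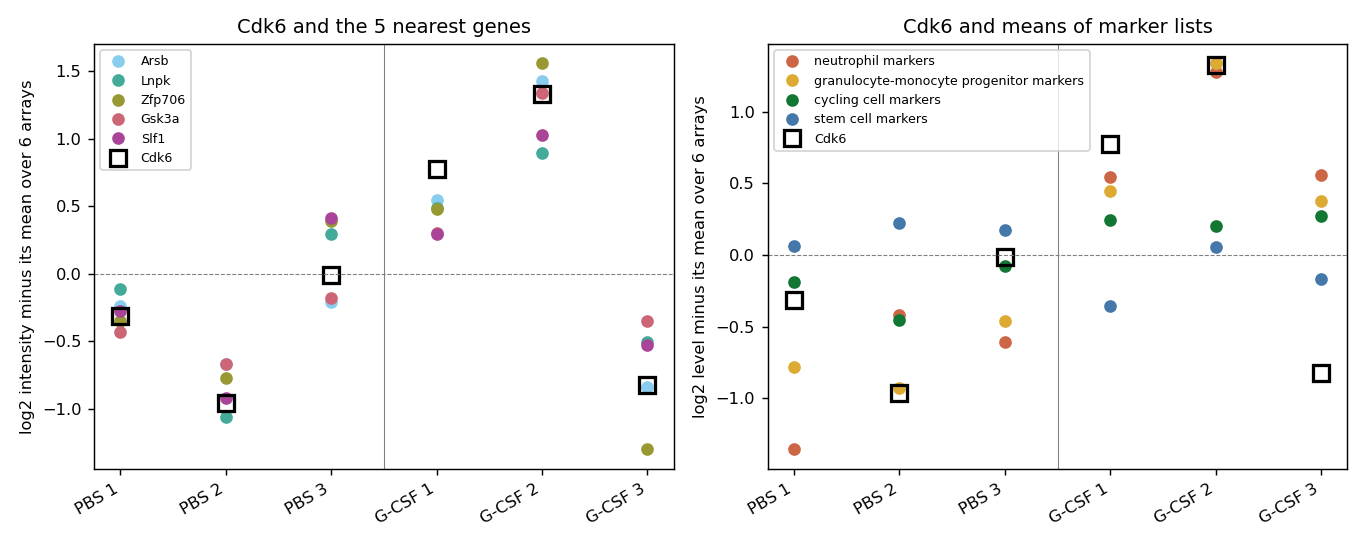
Both panels plot log2 values per array minus their mean over the 6 arrays, with a vertical line between the PBS and G-CSF arrays and open squares for Cdk6. The left panel adds the 5 genes nearest to Cdk6, and the right panel adds the mean of 4 marker lists. Cdk6 is low on G-CSF replicate 3, while the neutrophil and progenitor lists are above their mean on every G-CSF array. Among G-CSF arrays, Cdk6 and the progenitor list are both highest on replicate 2 and lowest on replicate 3. The progenitor list is nearly level on replicates 1 and 3, where Cdk6 is not. The neutrophil and stem cell lists are highest on replicate 2 and lowest on replicate 1. The cycling cell list is highest on replicate 3 and lowest on replicate 2.

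Cdk4 encodes the other kinase of the D-type cyclins. It stood at 8.65, 8.89 and 8.99 with PBS and at 8.92, 9.48 and 9.02 with G-CSF. Replicate 2 was the high array of the G-CSF group, replicate 3 lay just above the PBS arrays, and replicate 1 lay among them. The difference was 0.29 (SE 0.20, 95% interval -0.18 to 0.77, limma adjusted p = 0.941), and 0.12 without G-CSF replicate 2. With quantile normalization again, all Cdk4 values with G-CSF lay above those with PBS (0.32, limma adjusted p = 0.871). The ratio of Cdk6 to Cdk4 was 0.21, 0.19 and -1.51 on the G-CSF arrays, against -0.62, -1.51 and -0.66 on the PBS arrays. It was highest on G-CSF replicates 1 and 2, while replicate 3 was level with the lowest PBS array, and the change of 0.56 had an exact permutation p of 0.5 (adjusted p = 0.7).

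Cdk2 encodes the partner of E-type and later of A-type cyclins. Its values were 7.50, 7.26 and 7.22 with PBS and 7.15, 8.13 and 7.42 with G-CSF. A single array, G-CSF replicate 2, stood above the rest, and G-CSF replicate 1 was the lowest of all. The difference was 0.24 (SE 0.26, 95% interval -0.38 to 0.86, limma adjusted p = 0.966), and it was -0.043 without G-CSF replicate 2. Relative to Cdk4 in the same array Cdk2 was nearly level between groups (change -0.06, exact permutation p = 0.9, adjusted p = 0.9). Relative to Cdk6 it changed by -0.62 with overlap (exact permutation p = 0.5, adjusted p = 0.7).

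The E-type cyclins drive the later part of G1 with Cdk2. Ccne1, which encodes cyclin E1, stood at 6.04, 5.87 and 6.10 with PBS and at 6.38, 6.12 and 5.92 with G-CSF. The G-CSF arrays reached from within the PBS range to just above it. The difference was 0.13 (SE 0.18, 95% interval -0.28 to 0.55, limma adjusted p = 0.966). Ccne2, which encodes cyclin E2, stood at 5.38, 5.19 and 5.92 with PBS and at 5.42, 5.16 and 5.28 with G-CSF. PBS replicate 3 was the high array, and the others lay close together and near the filter's limit of 5.152. The difference was -0.21 (SE 0.22, 95% interval -0.72 to 0.30, limma adjusted p = 0.966), and 0.002 without PBS replicate 3. The ratio of Ccne2 to Ccne1 changed by -0.34 (exact permutation p = 0.3, adjusted p = 0.7).

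**Figure D4:**
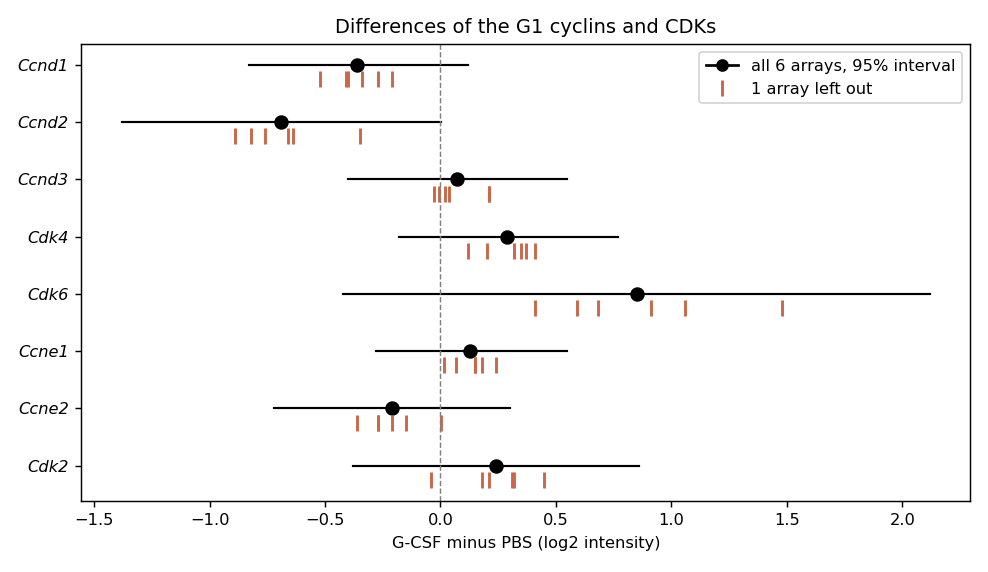
Black points and lines give each member's difference, G-CSF minus PBS in log2 intensity, with limma's 95% interval over all 6 arrays, and the orange ticks give the difference with 1 array left out. Every interval includes 0, and the ticks cross 0 for Ccnd3, Ccne2 and Cdk2.

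With 3 arrays a group, the intervals leave room for sizeable changes in the members. The narrowest, that of Ccne1, spans 0.825-fold to 1.46-fold, and the widest is that of Cdk6. In 6 of the 8 members the SD was larger among G-CSF arrays than among PBS arrays, beside 50.4% of all genes. It was 4.51 times as large for Ccnd2, 3.32 times for Cdk2 and 2.3 times for Cdk6, while Ccne2 had the reverse, at 0.342 times.

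The genes around the members were taken as 8 lists with 89 genes, of which 82 were tested. One list, of 16 other cyclins and CDKs, holds relatives of the members and not genes chosen for acting on or through them. None passed after adjustment in limma (0 higher, 0 lower, smallest adjusted p = 0.325). At an unadjusted p under 0.05, 4 were higher and 3 lower by limma, beside 2.73% higher and 3.3% lower among all genes. Their median difference was 0.03, with 44 positive and 38 negative.

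Among the inhibitors that bind the members, 6 of 7 listed were tested and 0 passed (median 0.06). Cdkn2d, the INK4 inhibitor p19 of Cdk4 and Cdk6, stood at 5.85 ± 0.10 with PBS and 6.28 ± 0.16 with G-CSF, without overlap (0.43, SE 0.16, limma adjusted p = 0.749). Cdkn1c, the inhibitor p57 known for stem cell quiescence, had its G-CSF arrays below its PBS arrays (-0.39, SE 0.17, limma adjusted p = 0.853). Cdkn2a differed by 0.27 (SE 0.16), and Cdkn1b, the inhibitor p27, by -0.10 with an SE of 0.53.

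The pocket proteins are the substrates of the members, and 0 of 3 passed. Rbl2, the pocket protein p130 of resting cells, was lower on every G-CSF array. It stood at 7.96 ± 0.07 with PBS and 7.34 ± 0.03 with G-CSF (-0.62, SE 0.14, limma adjusted p = 0.35). Rb1 (0.44, SE 0.24) and Rbl1 (0.48, SE 0.38) had differences of the other sign, and their groups overlapped.

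Of the 10 E2F and DP factors, some of which the pocket proteins hold in check, 0 passed (median 0.18, 6 positive and 4 negative). E2f3, an activating E2F, stood at 7.57 ± 0.76 with PBS and 6.07 ± 0.46 with G-CSF (-1.50, SE 0.40, limma adjusted p = 0.474). E2f2, also an activator, stood at 5.92 ± 0.11 with PBS and 6.33 ± 0.04 with G-CSF (0.40, SE 0.14, limma adjusted p = 0.746). The groups overlapped in neither. E2f8, an atypical repressor, differed by 0.50 (SE 0.27) with overlap.

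Of 6 tested genes that control CDK activation, for or against, 5 had negative differences and 0 passed (median -0.22). Wee1, which encodes a kinase that inhibits CDKs, was among the 5 (-0.29, SE 0.36), so the shared sign has no single meaning. Ccnh, the cyclin of the CDK-activating kinase, had the smallest p (-0.50, SE 0.20, limma adjusted p = 0.796). Its kinase Cdk7 differed by -0.16 (SE 0.18), and the phosphatase gene Cdc25a, which acts on Cdk2, by 0.25 (SE 0.24). Of 11 tested genes of cyclin turnover 0 passed (median 0.03). Fbxo31, an F-box protein that targets cyclin D1, differed by 0.33 (SE 0.17), the kinase gene Gsk3b by -0.59 (SE 0.44) and Fbxo4 by 0.47 (SE 0.37).

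Downstream, 0 of 15 tested S phase partners and E2F targets passed (median 0.06, 11 positive and 4 negative). Ccna2, the A-type cyclin that succeeds the E-type cyclins on Cdk2, had the smallest p (0.85, SE 0.37, limma adjusted p = 0.851), and its groups overlapped. The licensing factor Cdt1 differed by 0.39 (SE 0.22) without overlap, and Tyms, thymidylate synthase, by 0.31 (SE 0.20). Upstream, 0 of 15 tested mitogen and growth genes passed (median 0.03). Stat3, the factor that the G-CSF receptor activates, stood at 7.83 ± 0.28 with PBS and 8.73 ± 0.19 with G-CSF (0.91, SE 0.20, limma adjusted p = 0.325). The receptor gene Csf3r differed by 1.51 (SE 0.41, limma adjusted p = 0.477) and Ets2 by -0.60 (SE 0.28). Myc, which encodes a factor known to bind CACGTG, differed by 0.03 (SE 0.26), and no binding was measured here. Of 16 other cyclins and CDKs 0 passed (median -0.03), with Ccnk (-0.48, SE 0.25), Ccng2 (-0.40, SE 0.22) and Cdk9 (0.61, SE 0.44) at the smallest p.

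**Figure D5:**
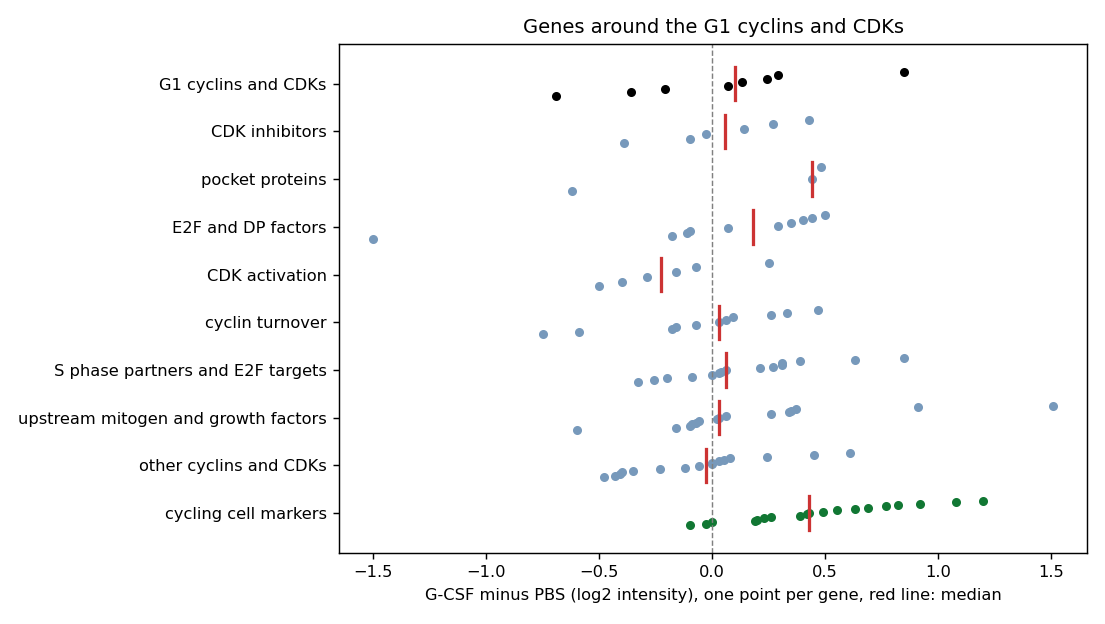
Each point is the difference of 1 tested gene, G-CSF minus PBS in log2 intensity, for the 8 members (black), 8 lists of genes around them (blue) and markers of cycling cells (green), with the list median as a red line. Medians of the blue lists lie between -0.22 and 0.44, and that of the cycling cell markers is 0.43.

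The sorted fraction holds a mixture of cells, and in such a sample fewer cells of a type and less RNA per cell cannot be told apart. The array medians lay between 56.2 and 61.7 on the intensity scale, and no array stood apart from the rest by rank correlation (0.836 to 0.895 between arrays). Among the gate's own markers, Kit was at 10.01 ± 0.23 with PBS and 9.04 ± 0.36 with G-CSF, without overlap. The Kit difference was -0.98 (SE 0.23, limma adjusted p = 0.374). Slamf1 (CD150) was at 6.51 ± 0.13 with PBS and 6.32 ± 0.33 with G-CSF, with overlap. Among markers that the gate selects against, the groups overlapped for Cd48 (-0.11), Itga2b (CD41, -0.16) and the neutrophil marker Ly6g (-0.19), while Itgam, the myeloid integrin CD11b, differed by 1.76 without overlap (SE 0.44, limma adjusted p = 0.418). The gate selects against lineage-positive cells, and how pure the sorted cells were was not tested here. The gene of Sca-1 is not analysed here, having no probeset with its symbol alone. The neutrophil markers lay higher with G-CSF: its arrays were wholly above PBS arrays in 12 of 13, beside 5.77% of all genes, and the array means ran from 8.10 to 9.04 with PBS and from 10.00 to 10.74 with G-CSF. In the granulocyte-monocyte progenitor list this held for 9 of 10 (6.32 to 6.79 against 7.63 to 8.59), and in the cycling cell list for 8 of 19 (6.08 to 6.46 against 6.74 to 6.81). The lists were chosen with earlier results of these data known, so their shares, here and below, are not an independent test. The mean of the progenitor list was 7.70, 8.59 and 7.63 on G-CSF arrays 1 to 3, where Cdk6 stood at 9.12, 9.67 and 7.52. That of the cycling cell list was 6.78, 6.74 and 6.81 on the same arrays, in another order. The array means ran from 7.64 to 7.80 with PBS and 7.22 to 7.63 with G-CSF for the stem cell list, from 6.52 to 6.74 and 5.89 to 6.05 for the megakaryocyte list, and from 6.47 to 7.15 and 6.41 to 6.73 for the erythroid list. In limma 0 genes of these lists passed after adjustment (smallest adjusted p = 0.112, Ltf). At an unadjusted p under 0.05 by limma, 12 of 13 neutrophil, 9 of 10 progenitor and 7 of 19 cycling cell markers were higher and none of them lower, beside 2.73% of all genes higher and 3.3% lower. In the megakaryocyte list 3 of 7 were lower and 1 was higher, in the stem cell list 2 of 12 were lower, in the erythroid list 1 of 6 was lower, and in the lymphocyte list none of 6 passed. The lymphocyte list did not separate (6.02 to 6.17 against 6.06 to 6.25), and 5 of its 12 genes were under the filter's limit. Every probeset had a value above 0, and no level for calling a gene expressed was set, so no marker can be called absent. The part of these cells in the members' values was not tested.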

How the data were processed

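The deposited values are intensities on a linear scale. The submitters' processing notes name RMA, a method that by definition corrects background, quantile-normalizes and summarises probes. The sources used here do not say what software ran it. Values of 35554 probesets ran from 2.697 to 19069.3, and log2 was taken, with no pseudocount. Probesets were named from GEO's platform annotation, and 21789 had 1 symbol. The lowest 25% of these by mean over the 6 arrays (log2 mean up to 5.152) were left out, and the brightest probeset stood for each gene, which left 14994 genes. Limma 3.58.1 in R 4.3.3 (lmFit, eBayes, no covariate) compared the groups with Benjamini-Hochberg adjustment over all genes, two-sided, and the fit was tested on simulated data. The number of arrays limits the precision. Limma's p-values set a group difference against the spread between arrays of separate pools of mice, moderated by the spread over all genes. Pair ratios were compared by exact permutation. Figures used matplotlib 3.10.9.

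The members and gene lists were chosen with earlier results of these data known. Named genes were the members, up to 3 genes per list with the smallest p and the 5 genes nearest to the member with the largest difference. Cdkn1b, Myc and the marker genes named (Kit, Slamf1, Cd48, Itga2b, Ly6g, Itgam and Ltf) are outside this rule and were picked once their values had been seen. Alternatives changed the filter, normalization, pseudocount, variance model, array weights, probeset rule, replicate block and the arrays used.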

Additional observations from a re-analysis of the deposited data

How the results depend on the processing

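Over 15 alternatives, 0 of 119 values of the members passed the threshold (smallest adjusted p = 0.53, Cdk6). Ccne2 has no value with the lowest 50% of probesets left out, being dimmer than that limit. With 1 array left out, differences ran from -0.52 to -0.21 for Ccnd1, -0.89 to -0.35 for Ccnd2, -0.029 to 0.21 for Ccnd3, 0.12 to 0.41 for Cdk4, 0.41 to 1.48 for Cdk6, 0.014 to 0.24 for Ccne1, -0.36 to 0.002 for Ccne2 and -0.043 to 0.45 for Cdk2. The sign turned in 4 of the 119 values, each with 1 array left out. In the same way, ratio changes ran from -0.68 to -0.001 for Ccnd2 over Ccnd1, 0.23 to 0.56 for Ccnd3 over Ccnd1, 0.56 to 0.97 for Ccnd3 over Ccnd2, 0.27 to 1.13 for Cdk6 over Cdk4, -0.45 to -0.18 for Ccne2 over Ccne1, -0.18 to 0.13 for Cdk2 over Cdk4 and -1.17 to -0.23 for Cdk2 over Cdk6. The count of genes higher with G-CSF over the whole table, 4 in the main test, was 12 with quantile normalization again, 2 with arrays centred on the median, 2 with log2(value + 16) and 0 to 6 with 1 array left out. The cause was not tested. By limma 0 genes were lower after adjustment in the main test and in every alternative run. In the main test 495 were lower at an unadjusted p under 0.05 by limma.

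The labels number the replicates 1 to 3 in both groups. Deviations of same-numbered arrays from their group means correlated at 0.289, 0.019 and 0.193. For each PBS array this was the highest of its correlations with the G-CSF arrays. G-CSF replicate 2 was nearer to PBS replicate 3 (0.101). The labels do not say that same-numbered arrays were paired, and these correlations cannot settle it. With the replicate block 5 genes were higher, and the members' differences, such as -0.69 for Ccnd2 and 0.85 for Cdk6, were the same by construction, with adjusted p from 0.627.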
